A study of Mus musculus with 30 samples.

Results

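Fibrillar collagens and the matrix proteins that bind them were followed in mouse quadriceps muscle as a set of 8 genes. They were chosen by name, with earlier results of these data known. The set holds the collagen chain genes Col1a1, Col1a2, Col3a1, Col5a1 and Col5a2, and the matrix partner genes Sparc, Postn and Thbs2. All 8 had an entry on the arrays, out of 16475 gene entries tested. Each was above an intensity of 20 on all 30 arrays, a level that 6844 entries passed on at least 5 arrays.

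Gene expression was measured in 30 male mice labelled C56BL/6J (the design text gives the strain as C57BL/6J), 1 array per mouse and 10 mice per group. The first group, HF d56, was fed a high fat diet for 56 days and was 20 weeks old at dissection. The second, LF d56, was fed a low fat diet over the same 56 days and was also 20 weeks old, so these 2 groups differ by diet at equal age. The third, LF d0, was killed at day 0 at 12 weeks of age, after the 3 weeks of low fat run-in diet that every mouse received. The study fed the high fat diet to induce obesity and insulin resistance and asked how the muscle transcriptome responded. The comparison of LF d56 with LF d0 joins 8 weeks of low fat feeding with 8 weeks of age. The comparison of HF d56 with LF d0 joins 8 weeks of high fat feeding with the same 8 weeks of age. The day of dissection also differs in both, and feeding, age and day of dissection cannot be told apart.

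Collagens I, III and V build the banded fibrils of the connective tissue that wraps muscle fibres and bundles and carries their force to the tendon. Each molecule is a triple helix: Col1a1 and Col1a2 encode the chains of collagen I, Col3a1 the single chain type of collagen III, and Col5a1 and Col5a2 chains of collagen V, which sits inside the fibril and limits its width. Sparc, Postn and Thbs2 encode matricellular proteins, which are secreted into the matrix and act on fibril assembly and on cells more than as building blocks: SPARC binds collagen and calcium, periostin binds collagen I and helps the cross-linking enzyme lysyl oxidase, and thrombospondin-2 shapes fibrils and inhibits the growth of blood vessels. In skeletal muscle these genes are read mainly in fibroblasts and fibro-adipogenic progenitors and not in the muscle fibres, and Sparc also in endothelial cells.

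The DNA before the start of these genes is shown for 4 of them, 2 chains that fell in both comparisons with day 0 and 2 partners whose levels differed most between the diets. Each run is the 250 bases before the RefSeq start on the gene's own strand, from the RefSeq promoter table of build GRCm38.p6. Col1a2 lies at chr6:4505368-4505617 on the plus strand, Col3a1 at chr1:45311288-45311537 on the plus strand, Postn (the second of its 2 listed starts) at chr3:54360857-54361106 on the plus strand and Thbs2 at chr17:14694263-14694512 on the minus strand. Capitals mark 4 motifs searched on both strands: the CCAAT box CCAAT, the TATA box TATAAA, the GC box GGGCGG and the SMAD element CAGAC, the short sequence that SMAD proteins of the TGF-beta pathway bind.
Col1a2: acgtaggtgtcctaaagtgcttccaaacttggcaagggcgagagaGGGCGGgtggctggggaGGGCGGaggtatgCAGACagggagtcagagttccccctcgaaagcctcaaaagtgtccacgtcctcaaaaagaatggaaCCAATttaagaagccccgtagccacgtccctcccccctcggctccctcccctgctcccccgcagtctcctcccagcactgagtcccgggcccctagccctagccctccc
Col3a1: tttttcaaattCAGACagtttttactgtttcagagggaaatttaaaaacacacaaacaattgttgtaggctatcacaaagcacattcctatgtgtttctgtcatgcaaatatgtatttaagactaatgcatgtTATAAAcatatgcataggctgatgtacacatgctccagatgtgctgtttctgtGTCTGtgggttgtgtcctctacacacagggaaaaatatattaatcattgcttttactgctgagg
Postn: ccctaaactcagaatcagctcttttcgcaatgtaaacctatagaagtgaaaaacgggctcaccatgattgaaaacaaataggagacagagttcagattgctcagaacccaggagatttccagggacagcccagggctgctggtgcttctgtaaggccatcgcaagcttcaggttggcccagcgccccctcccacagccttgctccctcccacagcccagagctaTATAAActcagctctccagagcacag
Thbs2: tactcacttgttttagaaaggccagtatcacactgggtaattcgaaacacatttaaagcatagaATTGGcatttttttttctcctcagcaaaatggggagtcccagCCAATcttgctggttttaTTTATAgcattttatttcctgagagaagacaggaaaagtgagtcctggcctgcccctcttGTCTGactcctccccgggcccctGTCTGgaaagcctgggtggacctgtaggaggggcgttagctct

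Of the 8 genes, 6 had an entry in that table, with 7 starts in all. The SMAD element was in 6 of the 7 windows, and 42.2% of 32851 mouse promoter windows of the same length held it. Col1a2 carried 1 such element, 170 bases before the start, and Col3a1 carried 2, at 234 and 59 bases. The CCAAT box was in 2 of the 7 windows, Col1a2 at 104 bases and Thbs2 at 181 and 139 bases, against 33.8% of all windows. The TATA box was in 3 of the 7, against 12.4% of all windows. It stood 20 bases before the second Postn start, 111 before that of Col3a1 and, on the opposite strand, 120 before that of Thbs2. The GC box was in 2 of the 7 (Col1a2 and Col5a1, against 32.7% of all windows). No 2 matches overlapped, and a match describes the letters only.

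Levels are given below as the deposited intensity, a linear brightness per gene whose size depends on the probes, so they are compared between mice for 1 gene and never between genes. The arrays had medians of 9 to 9.5, and 6334 to 6563 entries lay above 20 on each. The spike-in control RNAs added at labelling split the arrays into a set of 21 with low and a set of 9 with high 5-prime to 3-prime signal, 7 and 3 in every group. These are called labelling sets below, although no sample label names a labelling batch. Markers of muscle fibres were strong everywhere: all 12 were above 20, and their summed level was 200000 to 211000 in HF d56, 202000 to 213000 in LF d56 and 198000 to 210000 in LF d0. Marker genes of other tissues stood out on some arrays. S100a8, a neutrophil gene, exceeded 100 on 17 arrays (6 in HF d56, 4 in LF d56 and 7 in LF d0). Ibsp, a bone gene, or Col2a1, the cartilage collagen, exceeded 20 on 6 arrays, all of them LF d0 (replicates 2, 3, 4, 6, 9 and 10). These are called the bone and cartilage arrays below, a name that rests on Ibsp and Col2a1 alone.

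**Figure D1:**
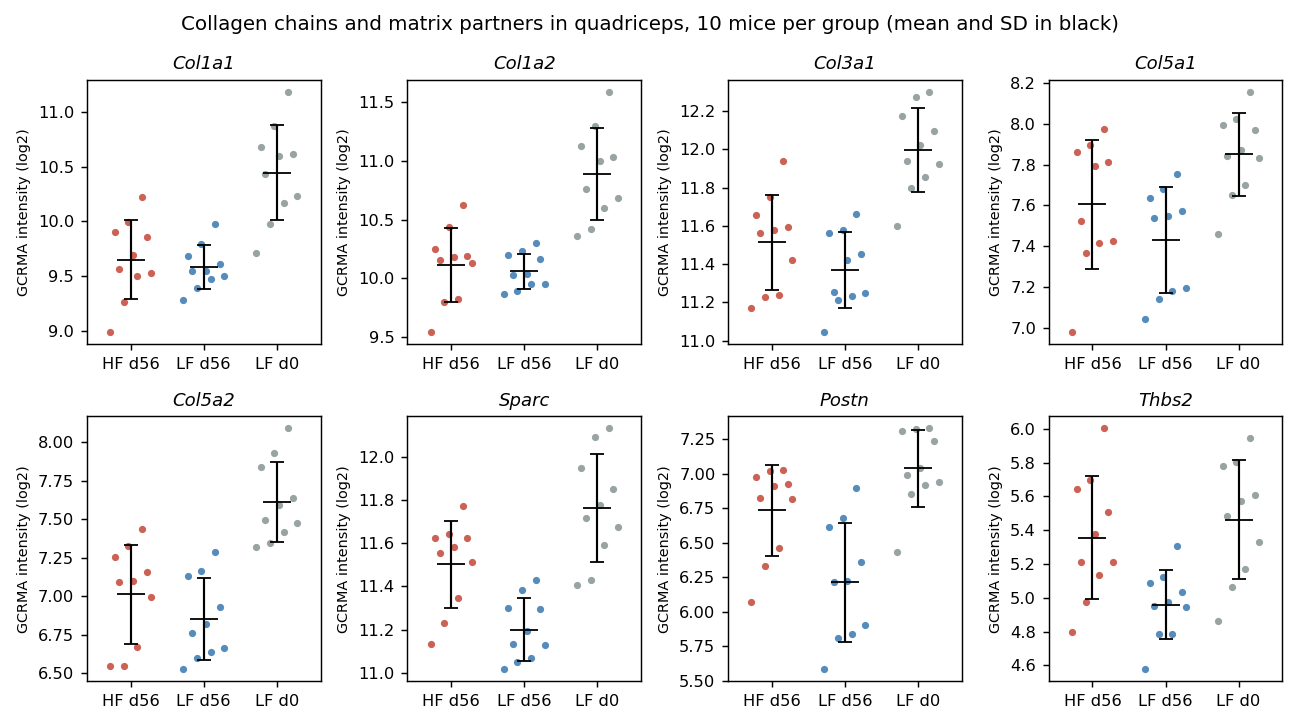
Deposited intensity on a log scale of each of the 8 genes on every array, 1 panel per gene, for HF d56, LF d56 and LF d0 from left to right. Points are mice and the bar marks the centre of the group. All 8 genes have their highest median in LF d0 and their lowest in LF d56, and the LF d56 and LF d0 points are fully separate for Col1a2 and Col5a2.

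The clearest pattern was between the low fat groups. On low fat diet, 6 of the 8 genes fell at day 56 relative to day 0: Col1a1, Col1a2, Col3a1, Col5a2, Sparc and Postn, by 0.56 to 0.86 on the log2 scale. Among all entries 0.625% passed the test as lower in this comparison (103 of 16475) and 0.850% passed in either direction. The test was limma on log2 intensity with all 3 groups in 1 fit and Benjamini-Hochberg adjustment over all 16475 entries, and an adjusted p under 0.05 counts as passed. All 8 fitted differences were below 0, a direction that 49.6% of all entries had, and their median was -0.69, against 0.001 over all entries. The 8 genes were chosen with earlier results of these data known, so these shares are a background and not an independent test of the set. In bulk tissue, fewer cells of a type and less RNA per cell cannot be told apart.

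Col1a1 and Col1a2, whose products join in 1 molecule, fell by nearly the same amount. Col1a1 had an intensity of 622.8 at the lowest, 748.95 at the median and 1005.3 at the highest LF d56 mouse, against 837.2, 1463.05 and 2328 in LF d0. The highest LF d56 mice therefore reached into the range of the lowest LF d0 mice. The log2 difference was -0.86 ± 0.15 (SE, n = 10 each), with a limma adjusted p of 0.00112. Col1a2 ran from 936.4 through a median of 1046.35 to 1258.8 in LF d56, against 1314.7, 1890.9 and 3081.2 in LF d0. Every LF d56 mouse lay below every LF d0 mouse, a separation that 0.0850% of all entries showed in this direction. Its log2 difference was -0.83 ± 0.13 (SE, n = 10 each; limma adjusted p = 0.000451).

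Col3a1, the chain of the thinner fibrils that mix with collagen I, had intensities of 2112.4, 2595.2 and 3239.4 (lowest, median and highest) in LF d56, against 3097.4, 4043.3 and 5045.1 in LF d0. Only the edges of the groups met. The log2 difference was -0.63 ± 0.1 (SE, n = 10 each) and the limma adjusted p 0.000373. The chains of collagen V gave different results in the test. Col5a2 ran from 92.4 through 110.7 to 156 in LF d56, against 159.4, 186.7 and 272 in LF d0, with no overlap, and its log2 difference was -0.76 ± 0.12 (SE; limma adjusted p = 0.000498). Col5a1 ran from 131.9 through 186.65 to 216 in LF d56, against 176.1, 231.8 and 285.6 in LF d0. Its groups overlapped and its log2 difference of -0.42 ± 0.11 (SE) did not pass, with a limma adjusted p of 0.0773. Whether the Col5a1 and Col5a2 differences themselves differ was not tested.

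Among the partners, Sparc and Postn fell and Thbs2 did not pass. Sparc had 2073.2, 2295.9 and 2758.5 (lowest, median and highest) in LF d56, against 2717.3, 3438.7 and 4490.2 in LF d0. The groups touched only at their edges, and the log2 difference was -0.56 ± 0.09 (SE; limma adjusted p = 0.000477). Postn had 48, 74.4 and 119.1 in LF d56, against 86.5, 129.55 and 160.8 in LF d0. The ranges overlapped, with a log2 difference of -0.83 ± 0.15 (SE; limma adjusted p = 0.00211). Thbs2, the dimmest of the set relative to the level of 20, had 23.9, 31.2 and 39.6 in LF d56, against 29.1, 46.1 and 61.7 in LF d0. Its ranges overlapped widely and its log2 difference was -0.5 ± 0.13 (SE; limma adjusted p = 0.074). For each of the 8 genes, all 10 LF d56 mice lay below the LF d0 mean, which held for 2.39% of all entries.

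The count of 6 was not the same on every subset of arrays. In the larger labelling set alone 3 of the 8 genes passed (Col3a1, Col5a2 and Sparc), in the smaller set alone 2 (Col1a2 and Col5a2). None, 0 of 8, passed without the 6 LF d0 arrays with Ibsp or Col2a1 above 20, or without the arrays with S100a8 above 100. In either of these last 2 fits 7 of the 8 were at an unadjusted p under 0.05 in limma (1622 and 1979 of all 16475 entries). Without the bone and cartilage arrays, which left 4 LF d0 mice, the log2 differences were -0.68 for Col1a1, -0.68 for Col1a2, -0.54 for Col3a1, -0.35 for Col5a1, -0.68 for Col5a2, -0.43 for Sparc, -0.67 for Postn and -0.27 for Thbs2. Without the S100a8 arrays, which left 6 LF d56 and 3 LF d0 mice, they were -0.93 for Col1a1, -0.86 for Col1a2, -0.71 for Col3a1, -0.5 for Col5a1, -0.92 for Col5a2, -0.57 for Sparc, -0.93 for Postn and -0.33 for Thbs2. The median of the 8 was -0.6 without the bone and cartilage arrays and -0.79 without the S100a8 arrays, against -0.69 with all. Leaving out LF d0 replicate 7 alone brought Col5a1 (adjusted p = 0.0347) and Thbs2 (adjusted p = 0.021) past the limma threshold. Col5a1 also passed without LF d56 replicate 9 (adjusted p = 0.0482) or HF d56 replicate 3 (adjusted p = 0.0349), and Thbs2 without LF d0 replicate 8 (adjusted p = 0.048), HF d56 replicate 3 (adjusted p = 0.049) or HF d56 replicate 8 (adjusted p = 0.0424). None of the 6 genes that passed lost its call in any of these 30 fits.

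Markers of other tissues moved in the same comparison, in which 0.625% of all entries passed as lower and 49.6% had differences below 0. Of 9 measured tendon markers, 5 fell (Tnmd, Kera, Thbs4, Col11a1 and Fmod). All of these but Tnmd are counted again in the pathway lists below. Scx, above 20 on all 10 arrays of each group, had -0.13 and did not pass (limma adjusted p = 0.787). The summed tendon level was 2420 to 3110 in LF d56, against 3410 to 5040 in LF d0. This sum is weighted to Fmod (average 1140 in LF d56 and 1600 in LF d0) and Thbs4 (929 and 1280). Tnmd, the gene of tenomodulin in the sheath and body of tendons, had a log2 difference of -0.81 ± 0.12 (SE; limma adjusted p = 0.000316). Mkx never passed 20 in either group, and Col11a1 did so in LF d0 only. Of 7 bone markers 1 fell (Ibsp, -2.08), with 4 differences below 0 and 3 above. Their sum was 38.6 to 60.1 in LF d56, against 44.9 to 191 in LF d0, with Sp7, Dmp1, Mepe, Phex and Sost never above 20. Alpl was above 20 on 4 LF d56 and 3 LF d0 arrays, and its difference of -0.15 did not pass (limma adjusted p = 0.816). Of 10 cartilage markers 1 fell (Col2a1, -1.95), and their sum was 42.7 to 56.2 in LF d56, against 44.1 to 177 in LF d0, with the other 9 never above 20. None of 10 fibroblast markers passed (Mfap4 was never above 20), although 9 of the 10 differences were below 0, with a median of -0.13. Their summed level was 12700 to 14900 in LF d56, against 12300 to 15400 in LF d0. This sum is weighted to Gsn (average 7220 in LF d56 and 7480 in LF d0) and Dcn (4870 and 4910). The 8 neutrophil markers had sums of 38.4 to 2610 in LF d56 (median 44.4), against 40.4 to 10300 in LF d0 (median 2010), and none passed. All 8 of their differences were below 0, with a median of -2.06. Of 9 endothelial markers, all with differences below 0 and a median of -0.22, 1 fell: Cldn5, a tight junction gene of vessel walls (-0.79 ± 0.17, SE; limma adjusted p = 0.013). Their sum was 937 to 1360 with a median of 1120 in LF d56, against 1060 to 1610 with a median of 1400 in LF d0. No macrophage, slow fibre, adipocyte or smooth muscle and pericyte marker passed in this comparison. The part of tendon, bone, cartilage, vessel and blood-cell RNA in the fall of the collagen genes was not tested, beyond the values without the arrays above.

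**Figure D2:**
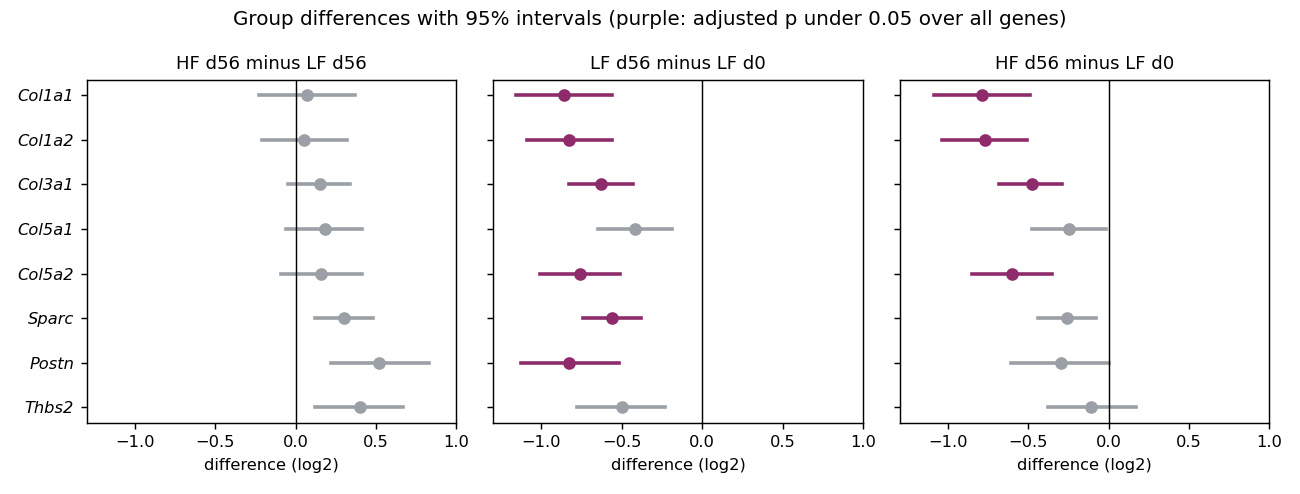
Log2 difference of each of the 8 genes with its 95% interval, for HF d56 minus LF d56, LF d56 minus LF d0 and HF d56 minus LF d0. Genes that passed limma at an adjusted p under 0.05 are marked. No gene passed between the diets, 6 passed in LF d56 minus LF d0 and 4 in HF d56 minus LF d0, all of these below 0.

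At equal age, none of the 8 genes passed the test between the diets. The limma fit called 4 of all 16475 entries in this comparison, all higher in HF d56, which is 0.0243%. All 8 fitted differences were above 0, a direction that 51.5% of all entries had, and their median was 0.17, against 0.003 over all entries. At an unadjusted p under 0.05 there were 3 of the 8, the 3 partners, against 5.10% of all entries.

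The partners had the larger differences. Sparc had intensities of 2246.2, 3041.1 and 3502.4 (lowest, median and highest) in HF d56, against 2073.2, 2295.9 and 2758.5 in LF d56. Of the 10 HF d56 mice, 9 lay above the LF d56 mean and 7 above its highest mouse. The log2 difference was 0.3 ± 0.09 (SE, n = 10 each; 95% interval 0.12 to 0.48), with a limma adjusted p of 0.495 and an unadjusted p of 0.00186. Postn had 67.3, 116.75 and 130.4 in HF d56, against 48, 74.4 and 119.1 in LF d56. The ranges overlapped, with 9 of 10 HF d56 mice above the LF d56 mean and a log2 difference of 0.52 ± 0.15 (SE; 95% interval 0.22 to 0.83; limma adjusted p = 0.467). Thbs2 had 27.8, 39.3 and 64.1 in HF d56, against 23.9, 31.2 and 39.6 in LF d56. Again 9 of 10 HF d56 mice lay above the LF d56 mean, and the log2 difference was 0.4 ± 0.13 (SE; 95% interval 0.12 to 0.67; limma adjusted p = 0.639). Without the arrays with S100a8 above 100 the Thbs2 difference was 0.14, and in the smaller labelling set alone it was 0.2.

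The chains lay closer together between the diets. Col1a1 had 508, 792.85 and 1194.8 in HF d56, against 622.8, 748.95 and 1005.3 in LF d56, so the HF d56 range enclosed the LF d56 range. Its log2 difference was 0.07 ± 0.15 (SE), with a 95% interval of -0.23 to 0.37. Col1a2 had 745.6, 1153.65 and 1580.9 in HF d56, against 936.4, 1046.35 and 1258.8 in LF d56, again enclosed, and a difference of 0.05 ± 0.13 (SE; 95% interval -0.21 to 0.32). The sign of both collagen I differences turned without the arrays with S100a8 above 100, to -0.0041 for Col1a1 and -0.06 for Col1a2. Col3a1 ran from 2303.7 through 3044.05 to 3925.8 in HF d56, against 2112.4, 2595.2 and 3239.4 in LF d56, and differed by 0.15 ± 0.1 (SE; 95% interval -0.05 to 0.34). For collagen V, Col5a1 ran from 126.1 through 203.15 to 251.3 and Col5a2 from 93.5 through 137.05 to 172.9 in HF d56. In LF d56 the values were 131.9, 186.65 and 216 for Col5a1 and 92.4, 110.7 and 156 for Col5a2. The log2 differences were 0.18 ± 0.11 for Col5a1 (SE; 95% interval -0.06 to 0.41) and 0.16 ± 0.12 for Col5a2 (SE; 95% interval -0.09 to 0.41). The limma adjusted p was 0.998 for each of the 5 chains. These intervals do not show that the chains were alike under both diets.

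No gene of the cell type lists passed between the diets in limma. The summed level of 4 adipocyte markers was 642 to 3310 in HF d56, against 767 to 1620 in LF d56, with a median log2 difference of 0.64. The summed level of 8 neutrophil markers was 38 to 13400 in HF d56 (median 1270), against 38.4 to 2610 in LF d56 (median 44.4), with Elane never above 20 in LF d56. All 8 of these differences were above 0, as were those of 51.5% of all entries, with a median of 1.15. The 10 fibroblast markers had a median difference of 0.04 and sums of 11800 to 15400 in HF d56, against 12700 to 14900 in LF d56. The 9 tendon markers summed to 2050 to 3850 in HF d56, against 2420 to 3110 in LF d56. The part of these cells in the differences of Sparc, Postn and Thbs2 was not tested.

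Set against day 0, the high fat group was lower for 4 of the 8 genes, all of them chains. Col1a1, Col1a2, Col3a1 and Col5a2 fell in HF d56 relative to LF d0. Col1a1 had a log2 difference of -0.79 ± 0.15 (SE, n = 10 each; limma adjusted p = 0.00202), and Col1a2 of -0.77 ± 0.13 (SE; adjusted p = 0.000563). Col3a1 had -0.48 ± 0.1 (SE; adjusted p = 0.0043) and Col5a2 -0.6 ± 0.12 (SE; adjusted p = 0.00474). Among all entries 0.807% passed as lower in this comparison (133 of 16475) and 1.59% passed in either direction. All 8 fitted differences were below 0, as were those of 48.9% of all entries, and their median was -0.39.

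The other 4 genes did not pass against day 0. The limma log2 difference was -0.25 ± 0.11 for Col5a1 (SE; adjusted p = 0.405) and -0.26 ± 0.09 for Sparc (SE; adjusted p = 0.175). It was -0.3 ± 0.15 for Postn (SE; adjusted p = 0.456) and -0.11 ± 0.13 for Thbs2 (SE; adjusted p = 0.868). The median HF d56 intensity of Postn was 116.75, against 129.55 in LF d0, and that of Thbs2 was 39.3, against 46.1. The comparisons share the LF d0 arrays, so the values of HF d56 and LF d56 against day 0 are not independent. None of the 4 calls held in either labelling set alone, without the S100a8 arrays or without the bone and cartilage arrays, where 4, 7, 5 and 4 of the 8 genes were at an unadjusted p under 0.05 in limma, beside 1636, 1323, 1227 and 1962 of all 16475 entries (larger set, smaller set, without S100a8, without bone and cartilage). The median difference of the 8 genes in these fits was -0.28, -0.72, -0.48 and -0.28, against -0.39 with all arrays. Without the bone and cartilage arrays the Thbs2 difference turned to 0.13.

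In this comparison 4 of 9 tendon markers fell and all 4 adipocyte markers rose. Among all entries 0.807% passed as lower and 1.59% in either direction. The tendon markers that fell were Tnmd, Thbs4, Kera and Fmod, all but Tnmd counted again in the pathway lists below. Of 9 endothelial markers 1 fell, Cldn5 (-0.71, limma adjusted p = 0.0207), with 8 of the 9 differences below 0, as were those of 48.9% of all entries. The endothelial sum was 1020 to 1380 in HF d56, against 1060 to 1610 in LF d0. The tendon sum was 2050 to 3850 in HF d56, against 3410 to 5040 in LF d0. The adipocyte sum was 642 to 3310 in HF d56, against 500 to 1270 in LF d0, where Lep, the leptin gene, was never above 20. Their part in the collagen differences was not tested.

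The order of the 3 groups was thus the same for each gene by its median, LF d56 lowest, HF d56 between and LF d0 highest, but neighbours in that order were not all apart. For Col1a1, Col1a2, Col3a1 and Col5a2, LF d0 stood above both day 56 groups past the threshold, and the 2 day 56 groups did not. For Sparc and Postn only the ends, LF d56 and LF d0, differed past the threshold, with HF d56 apart from neither. For Col5a1 and Thbs2 no pair passed.

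Relative to the chains, the partners stood higher in HF d56 than in the 2 low fat groups, which differed from each other by 0.07 on the log2 scale. The mean log2 level of Sparc, Postn and Thbs2 minus that of the 5 chains, counted from the LF d0 mean, was 0.1 at the lowest, 0.36 at the median and 0.74 at the highest mouse in HF d56. It was -0.15, 0.05 and 0.45 in LF d56, and -0.23, 0.03 and 0.14 in LF d0. All 10 HF d56 mice lay above the LF d56 mean and 2 above the highest LF d56 mouse, and 9 of 10 lay above the highest LF d0 mouse. The group means were 0.36 ± 0.18 in HF d56, 0.07 ± 0.18 in LF d56 and 0 ± 0.12 in LF d0 (SD, n = 10 each). This difference was taken after the values were seen, so it is a description with no test. It shows unequal shifts of the 2 sets of genes between HF d56 and the low fat groups, not unequal levels, and not which set moved. For HF d56 minus LF d56 it was 0.29, and it was 0.3 in the larger labelling set, 0.25 in the smaller and 0.24 without the S100a8 arrays. The bone and cartilage arrays are all LF d0, so leaving them out cannot change this value. The LF d56 minus LF d0 value of 0.07 moved more for its size. It was 0.09 in the larger labelling set, 0.013 in the smaller, 0.18 without the S100a8 arrays and 0.13 without the bone and cartilage arrays.

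**Figure D3:**
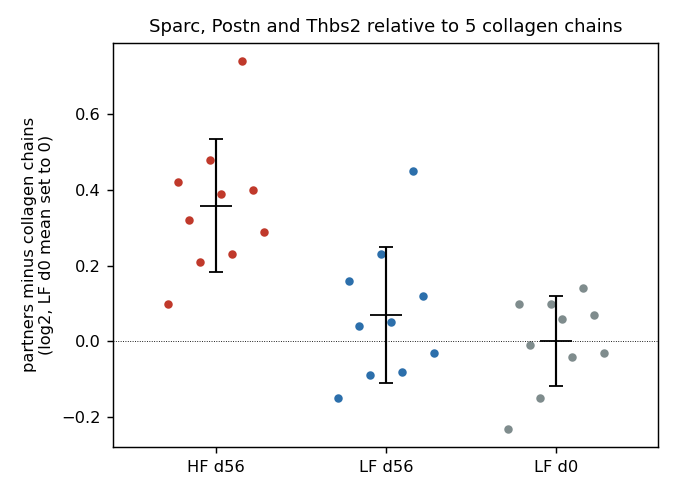
Mean log2 level of Sparc, Postn and Thbs2 minus that of the 5 collagen chains on each array, counted from the LF d0 mean, for HF d56, LF d56 and LF d0 from left to right; points are mice and the bar is the mean. The HF d56 points run from 0.1 to 0.74, above the LF d56 mean of 0.07 in all 10 mice.

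Within a group, mice that were high for 1 of the genes tended to be high for the others. For every gene the group mean was taken from each array, and the residuals were correlated between genes over the 30 arrays. Pearson's r for the 28 pairs ran from 0.19 to 0.93, with a median of 0.64, and 23 pairs had an adjusted p under 0.05 by a permutation test with 100000 resamples (two-sided, adjusted over the 112 relations computed, 28 pairs over all arrays and in each group). The residuals carry whatever differs from array to array within a group, the 5-prime to 3-prime signal and the other-tissue RNA included. Col1a1 and Col1a2 went together most closely, with r = 0.93 and Spearman's rho = 0.91. The permutation p was 1e-05 for both, the smallest the resamples can give, with adjusted values of 0.00014 and 0.000124. Without the 2 arrays farthest from the median Col1a1 residual r was 0.9, and within the labelling sets it was 0.92 for the arrays with high and 0.95 for those with low 5-prime to 3-prime signal.

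The tightness of the set differed in value between groups. The median r of the 28 pairs was 0.6 in HF d56, 0.46 in LF d56 and 0.85 in LF d0, with 12, 12 and 26 pairs at an adjusted p under 0.05 by permutation over the 10 mice. For each pair the 2 mice farthest from the median of its first gene, in the order the genes are named at the start, were then left out. Thbs2 is always the second gene, so its own extreme mice were not the criterion. The medians were then 0.46 in HF d56, 0.5 in LF d56 and 0.74 in LF d0, so the order of the 2 day 56 groups turned. The difference between groups was not tested. In LF d56, 7 pairs had a negative r, all of them pairs of Thbs2. Of these, 3 were positive without the 2 mice farthest for the first gene (0.27 with Col1a1, 0.38 with Col1a2 and 0.2 with Col5a2). Postn and Thbs2 had r = -0.75 there (rho = -0.7, permutation adjusted p = 0.0192 for r and 0.0519 for rho, and r = -0.62 without the 2 mice farthest for Postn). The same pair had r = 0.39 in HF d56 (permutation adjusted p = 0.305) and 0.85 in LF d0 (permutation adjusted p = 0.00524). It had r = 0.19 over all 30 arrays (permutation adjusted p = 0.324).

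Some mice stood high or low for the whole set. LF d0 replicate 1 had all 8 genes among the highest 3 mice of its group. LF d0 replicates 7 and 8 and HF d56 replicates 3 and 7 had all 8 among the lowest 3 of theirs. The mean log2 level of the 8 genes ran from 8.19 through 8.79 to 8.96 in HF d56, from 8.29 through 8.41 to 8.67 in LF d56 and from 8.65 through 9.17 to 9.54 in LF d0. The LF d56 mice thus spanned the narrowest range of the 3 groups.

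**Figure D4:**
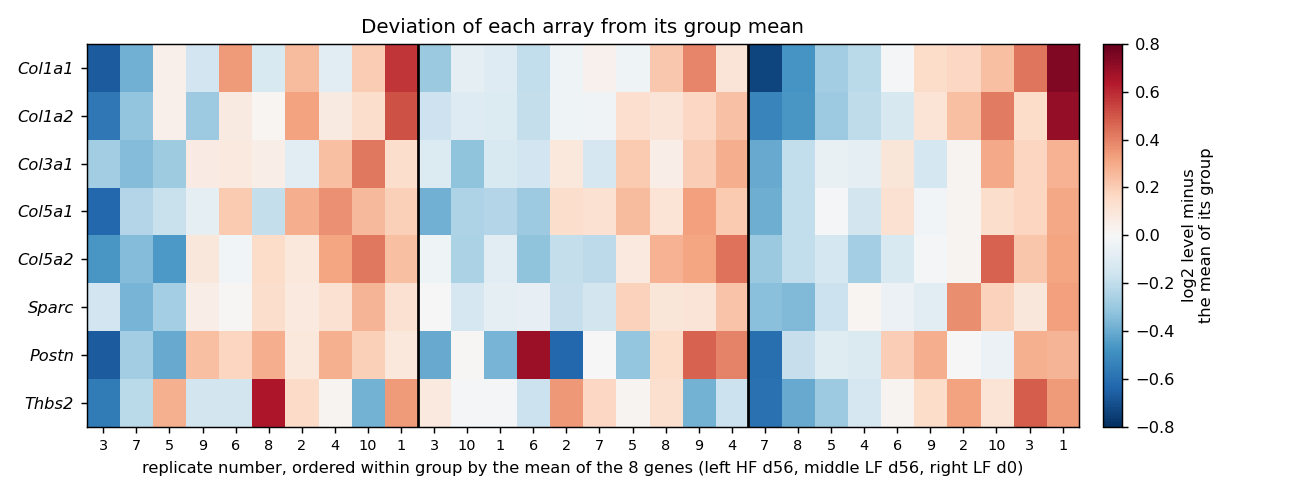
Log2 level of each of the 8 genes (rows) on each array (columns, by group and replicate) minus its group mean, as colour. Columns of 1 colour are mice in which the whole set stands high, as in LF d0 replicate 1, or low, as in LF d0 replicates 7 and 8 and HF d56 replicates 3 and 7.

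The genes whose residuals were most like the mean residual of the 8, among 6588 others with a symbol and an intensity above 20 on at least 5 arrays, included 5 other collagens. The 10 closest by Pearson's r over the 30 arrays were Col6a1 (0.85), Fstl1 (0.84), Col6a2 (0.83), Col4a2 (0.82), Fndc1 (0.78), Col4a1 (0.77), Mxra8 (0.77), Anxa2 (0.76), Col6a3 (0.76) and Dap (0.76). Of these, Col6a1, Col6a2 and Col6a3 encode the chains of collagen VI, the beaded microfibril next to the muscle fibre surface, and Col4a1 and Col4a2 those of the basement membrane collagen IV. Fstl1 encodes a secreted glycoprotein of the SPARC family. The median r over all entries above that level was -0.01. By list, the median r was 0.83 for collagen VI, 0.77 for basement membrane collagens, 0.67 for propeptide removal and cross-linking and 0.55 for fibroblast markers. It was 0.64 for macrophage markers, -0.05 for muscle fibre markers and -0.05 for the TGF-beta axis.

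The wider collagen pathway was read through 11 lists with 133 other genes, of which 121 were measured. These lists, like the 8 genes, were drawn up with earlier results of these data known. In LF d56 relative to LF d0, 19 of the 121 fell and 1 rose, with a median log2 difference of -0.16. Among all entries 0.625% passed as lower and 0.850% in either direction. In HF d56 relative to LF d0, 9 fell and 1 rose, with a median of -0.09, beside 0.807% of all entries lower and 1.59% in either direction. Between HF d56 and LF d56 none passed in limma, with 94 above 0, 27 below and a median of 0.06. Of all entries 0.0243% passed there and 51.5% were above 0.

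Genes that fell in LF d56 relative to LF d0 came from 8 of the 11 lists. Of 6 other fibrillar collagens 3 fell, with log2 differences of -0.81 for Col11a1, -0.7 for Col5a3 and -1.95 for Col2a1, of which only Col5a3 averaged above 20 in both groups. Col11a1 averaged 6.92 in LF d56 and 12.4 in LF d0, with 1 LF d0 array above 20, and Col2a1 averaged 6.35 in LF d56 and 38 in LF d0, so the sizes of these differences are uncertain. Of 5 collagen VI genes 3 fell, Col6a3 (-0.53 ± 0.1, SE; limma adjusted p = 0.00295), Col6a2 (-0.5) and Col6a1 (-0.34). Of 8 basement membrane collagens 2 fell, Col4a2 (-0.47) and Col4a1 (-0.54). Of 9 fibril-associated collagens 1 fell, Col22a1 of the muscle-tendon junction (-0.5).

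Among 10 genes of propeptide removal and cross-linking, Lox fell, with a log2 difference of -0.65 ± 0.11 (SE; limma adjusted p = 0.00156). Lox encodes lysyl oxidase, which starts the cross-links between collagen molecules. Of 12 fibril-binding proteoglycans and glycoproteins 4 fell, Kera (-1.03), Omd (-0.96), Bgn (-0.47) and Fmod (-0.48), small proteins that sit on the fibril surface. Omd averaged 15.1 in LF d56 and 28.9 in LF d0. Decorin (Dcn), of the same list, had a difference of -0.01 and did not pass. Of 14 other matricellular genes 3 fell, Thbs4 (-0.46), Tnc (-0.92) and Thbs1 (-0.66). Thbs1 averaged 12.3 in LF d56 and 19.7 in LF d0, under the level of 20 in both, so the size of its difference is uncertain. Of 13 genes of collagen degradation 2 fell, the fibroblast protease gene Fap (-0.48) and the cathepsin gene Ctsk (-0.67).

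Procollagen folding and the TGF-beta axis had no gene past the threshold. None of 15 genes of procollagen folding and hydroxylation fell past the limma threshold. Of the 15, 14 had differences below 0, as did 49.6% of all entries, and their median was -0.2. The smallest p among them was that of Serpinh1, the collagen chaperone HSP47, with -0.34 ± 0.1 (SE; adjusted p = 0.12). None of 16 genes of the TGF-beta axis, the main inducing signal of collagen genes, passed, and their median was 0.04. Tgfb1 itself had a difference of -0.4 ± 0.14 (SE; limma adjusted p = 0.264), with intensities averaging 13.5 in LF d56 and 17.8 in LF d0, under the level of 20. Of 13 receptors, Itgb5, an integrin beta chain, rose by 0.17 ± 0.04 on the log2 scale (SE; limma adjusted p = 0.0328).

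In HF d56 relative to LF d0 the 9 that fell were Col4a1 (-0.34), Col6a3 (-0.42), Col22a1 (-0.48), Kera (-0.86), Fmod (-0.45), Thbs4 (-0.42), Tnc (-0.9), Ctsk (-0.64) and the membrane collagenase gene Mmp14 (-0.36, with averages of 17 in HF d56 and 21.8 in LF d0). Itgb5 rose, by 0.23 (limma adjusted p = 0.00111). Lox had -0.42 and missed the threshold in limma (adjusted p = 0.0504). Between HF d56 and LF d56 the genes of smallest p in their lists included Omd (0.56, limma adjusted p = 0.759), Tgfb1 (0.41, adjusted p = 0.733), Timp4 (0.34), Serpinh1 (0.27, adjusted p = 0.786) and Col4a2 (0.24, adjusted p = 0.56).

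**Figure D5:**
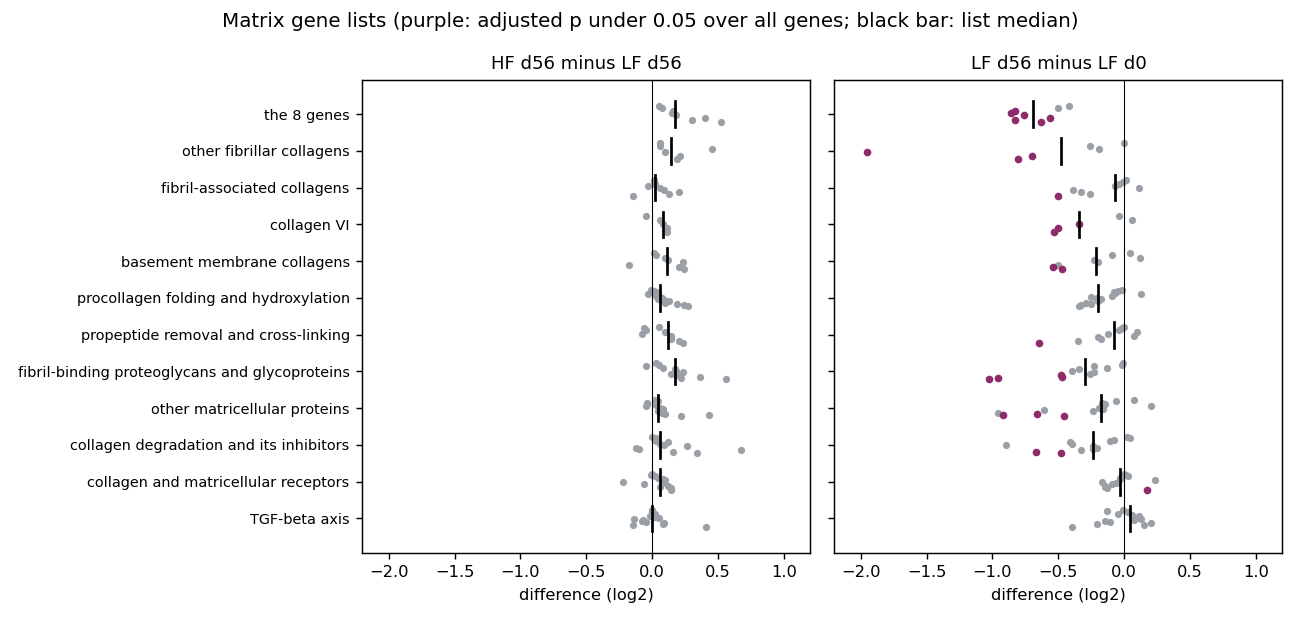
Log2 differences of the 8 genes and of the measured genes of 11 pathway lists, 1 row per list and 1 panel per comparison shown. Each point is a gene, marked where limma passed, and the bar is the list's median. In HF d56 minus LF d56, LF d56 minus LF d0 and HF d56 minus LF d0 the 8 genes have medians of 0.17, -0.69 and -0.39. The TGF-beta axis lies around 0 with medians of 0, 0.04 and 0.03.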

How the data were processed

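Total RNA of quadriceps muscle was labelled with biotin and hybridised to Affymetrix arrays, 1 per mouse. The authors deposited 1 table of intensity values per gene entry, on a linear scale, made with GCRMA per the submitters' processing notes (version not stated), a method that corrects background, normalizes between arrays and summarises probes. Array number limits the precision, and the values carry no counts.

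The 16539 entries were reduced by 64 controls to 16475, of which 15780 had 1 gene symbol and 695 none. The log2 of the deposited intensity, with no pseudocount, was fitted with limma 3.58.1 (lmFit, eBayes) in R 4.3.3 over all 30 arrays with group as the only term (27 residual and 3.97 prior degrees of freedom), and p-values were adjusted by Benjamini-Hochberg over all entries. Permutation tests and figures used Python 3.11.15 with scipy 1.17.1.

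Group and replicate came from the sample labels. The members and lists were chosen with earlier results of these data known. Named are the 8 genes, up to 3 genes per list of smallest p past the threshold (otherwise the 1 of smallest p), and the 10 most similar genes. Dcn, Gsn, Scx, Alpl, and genes named to complete a count or to set a value beside another comparison, were chosen after their values were seen. Alternatives covered samples in the fit, prior, array weights, quantile normalization, pseudocount, low-value filter, replicate block, labelling sets, marker covariates, arrays high for other-tissue genes and each array left out.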

Additional observations from a re-analysis of the deposited data

Results flagged for a closer look

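Of 24 sets of 10 values (8 genes in 3 groups), 1 held a mouse far from the others: Postn in LF d0, where replicate 7 had an intensity of 86.5 and the next mouse 115.8. The gap was 0.47 of the group's whole log2 range, just above Dixon's 95% critical value for 10 samples, and chance flags about 1 in 20 groups. The same mouse was the lowest of LF d0 for each of the 5 chains and for Thbs2.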

How the results depend on the processing

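Between HF d56 and LF d56, 0 of the 8 genes passed under every alternative run. Over all entries the 4 calls became 0 with only the 2 groups in the fit (799 at an unadjusted p under 0.05 in limma), 8 with a trended robust prior, 7 with a pseudocount of 16, 8 with the low-value filter, 2 with the bone and cartilage score and 12 with the slow fibre score as a covariate. They became 0 in the larger labelling set (835 unadjusted), 0 in the smaller (782) and 0 without the S100a8 arrays (728). Leaving out 1 array gave 2 to 15, the highest without HF d56 replicate 3. The Col1a1 difference turned to -0.0041 and that of Col1a2 to -0.06 without the S100a8 arrays, and Col1a2 to -0.0026 with the neutrophil score and -0.0048 without HF d56 replicate 1 (up to 0.12 with another array left out). In LF d56 minus LF d0 the 6 members called became 3 in the larger set, 2 in the smaller, 0 without the S100a8 arrays, 0 without the bone and cartilage arrays and 3 with the bone and cartilage score, and were 6 to 8 with 1 array left out. The 140 entries called became 214 with the labelling set as a block, 47 in the larger and 11 in the smaller set, 13 without the S100a8 arrays, 22 without the bone and cartilage arrays, 85 with the neutrophil and 40 with the bone and cartilage score. In HF d56 minus LF d0 the 4 members called became 0 in either set, without the S100a8 arrays and without the bone and cartilage arrays. The 262 entries called became 134 in the larger set, 0 in the smaller (1323 unadjusted), 6 without the S100a8 arrays and 99 without the bone and cartilage arrays, and Thbs2 turned to 0.13 without the last and 0.00067 with their score. Subsets hold fewer mice, and other causes were not tested. Replicate numbers did not pair the mice (30 same-number correlations, -0.53 to 0.57, median -0.11), and the replicate block gave 0, 6 and 4 members and 1, 104 and 209 entries called in the 3 comparisons. Thbs2 lay closest to the level of 20.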
